A study of Mus musculus with 12 samples.

Results

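The 8 inflammatory chemokine receptors Ccr1, Ccr2, Ccr4, Ccr6, Ccr8, Cxcr3, Cxcr6 and Cx3cr1 were followed across 4 populations of splenic CD4 T cells of the mouse. They were chosen by gene symbol, as all probe sets that the platform annotation assigns to 1 of these genes alone. This gave 14 of the 45101 probe sets on the array and 8 of 18193 named genes. Ccr2 had 4 probe sets, Ccr1, Cxcr6 and Cx3cr1 had 2 each, and the other receptors had 1 each.

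RNA was hybridised to 12 Affymetrix Mouse Genome 430 2.0 arrays, 3 for each population, and all cells came from female MRL/Faslpr mice. That strain develops lupus-like autoimmunity and has a defective Fas gene, whose product is a death receptor, and every population here shares it. The cells were TCRb+ CD4+ B220- and were sorted directly from the spleen, with no culture. Naive cells were CD62Lhi CD44lo and came from mice 6 to 8 weeks old. The other populations were CD44+ and came from mice 16 to 24 weeks old. These were CD62Lhi PSGL1hi, CD62Llo PSGL1hi and CD62Llo PSGL1lo cells, divided by L-selectin (CD62L) and by the selectin ligand PSGL1. Every comparison with naive cells is thus also one of old with young mice, and population and age cannot be told apart there. The sample titles speak of technical replicates and the design text of 3 independent sorts, so the p-values reflect only how far these samples spread, which may be technical. For the CD62Llo PSGL1hi samples a description field names a different gate, and the titles were followed.

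Chemokine receptors are G protein-coupled receptors with a bundle of membrane-spanning helices that bind small secreted chemokines, signal through Gi proteins and steer migrating cells. Inflammatory receptors are absent from or low on resting naive T cells, and appear after activation in combinations that go with the kind of helper cell. Cxcr3 is typical of Th1 cells, Ccr6 of Th17 cells and Ccr4 and Ccr8 of Th2 and regulatory T cells. Ccr2 and Cx3cr1 are best known from monocytes, and Cxcr6 from tissue-resident T cells and innate-like T cells. Homing receptors such as Ccr7 and Cxcr5 instead place T cells in the T cell zone and the B cell follicle of lymphoid organs.

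Values are linear ratios, the signal of a probe set over the median that this probe set has on the 12 arrays. A ratio above 1 means a signal above that median. Ratios compare populations for 1 probe set and say nothing about which receptor has more RNA. Signal over background is not known from the ratios. Differences are on the log2 scale ± SE, from a limma fit with n = 3 arrays a population, and a gene counted as called where the Benjamini-Hochberg adjusted p over all 18193 genes was under 0.05. In sorted bulk cells, a smaller number of receptor-positive cells and less RNA per cell cannot be told apart.

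The array medians ranged from 0.967 to 1.022. Selplg, which encodes PSGL1, had ratios of 0.118 to 0.153 in CD62Llo PSGL1lo cells and 0.906 to 1.147 in all other arrays. Cd44 had ratios of 0.0752 to 0.0842 in naive cells and 0.772 to 1.397 in the CD44+ arrays. RNA of both sort markers thus followed the labels, and the gate of the CD62Llo PSGL1hi arrays matched their titles as far as PSGL1 goes. The median SD over genes between the 3 arrays was 0.104 on the log2 scale for naive, 0.135 for CD62Lhi PSGL1hi, 0.114 for CD62Llo PSGL1hi and 0.148 for CD62Llo PSGL1lo cells.

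Of the 8 receptors, 6 differed among the 4 populations by limma's F test, against 28.3% of all genes. These were Cxcr3, Ccr2, Ccr6, Cxcr6, Ccr8 and Ccr4. The main probe sets of Ccr1 (adjusted p = 0.335) and Cx3cr1 (adjusted p = 0.428) did not pass. The distance between the highest and the lowest population mean was 5.52 for Cxcr3, 5.26 for Cxcr6, 4.48 for Ccr2 and 3.21 for Ccr6 on the log2 scale. It was 1.25 for Ccr4, 1.13 for Ccr8, 0.32 for Ccr1 and 0.25 for Cx3cr1.

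**Figure D1:**
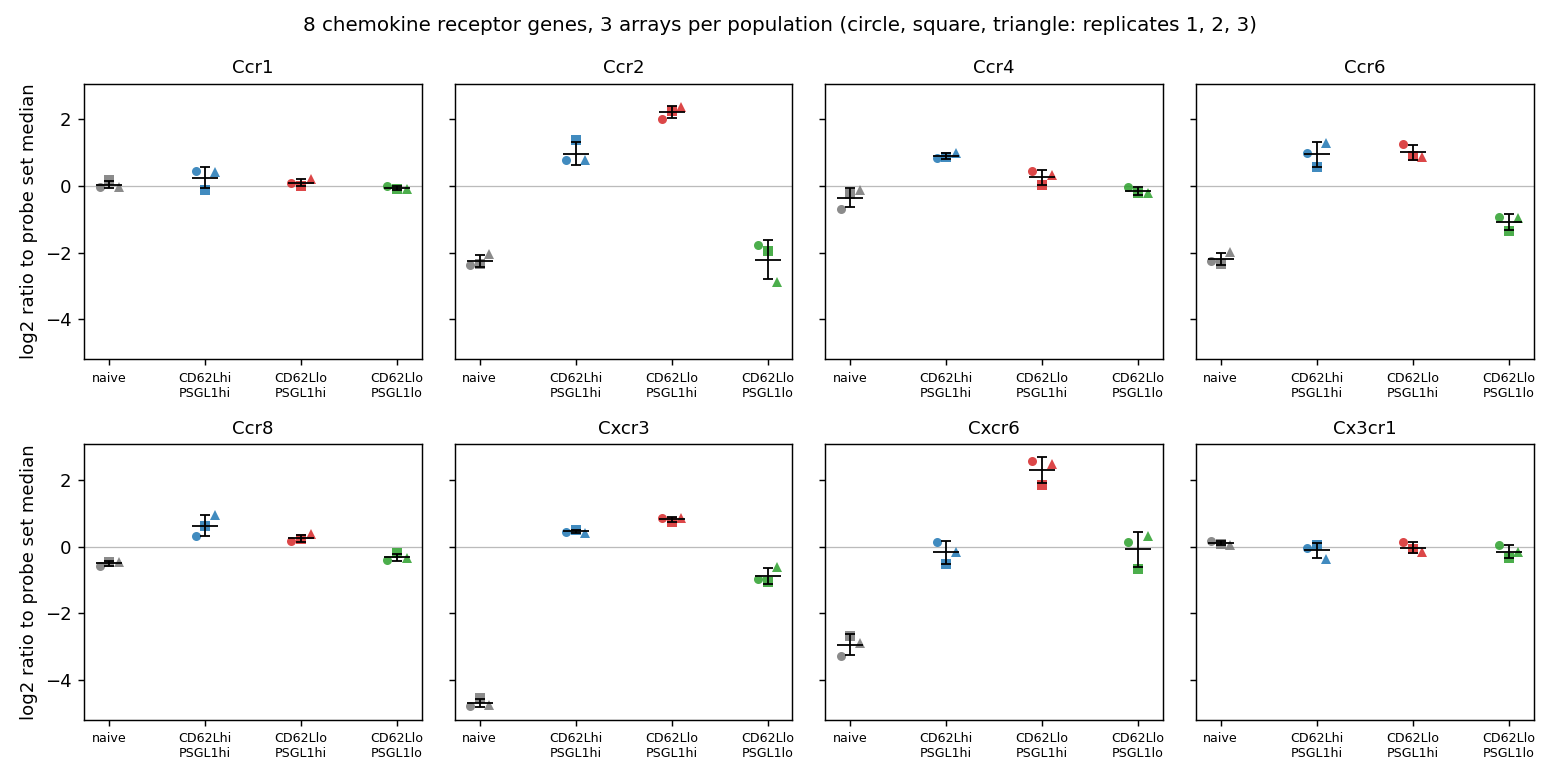
Log2 ratio of each array to the 12-array median for the main probe set of each receptor; each point is 1 array, its shape the replicate number, and the black lines are the mean and SD of 3 arrays. Cxcr3, Cxcr6, Ccr2 and Ccr6 were lowest in naive cells or, for Ccr2, in naive and CD62Llo PSGL1lo cells alike, whereas Ccr1 and Cx3cr1 stayed near a ratio of 1.

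The sequences just upstream of the annotated start are shown for the 3 receptors whose main probe sets had the widest range among the populations, because each of them had a different pattern in the data. RefSeq windows on GRCm38.p6 were found for 8 of 8 receptors, 9 windows in all, since Ccr6 has 2 starts. Each run covers 250 bases upstream of the start, 5′ to 3′ on the strand of the gene. Capitals mark the T-box motif TCACAC, a motif of the family that includes T-bet (Tbx21), and the RUNX motif TGTGGT, each searched on both strands. The windows lie at chrX:101734148-101734397 on the minus strand for Cxcr3, chr9:123806227-123806476 on the plus strand for Cxcr6 and chr9:124101933-124102182 on the plus strand for Ccr2.
Cxcr3: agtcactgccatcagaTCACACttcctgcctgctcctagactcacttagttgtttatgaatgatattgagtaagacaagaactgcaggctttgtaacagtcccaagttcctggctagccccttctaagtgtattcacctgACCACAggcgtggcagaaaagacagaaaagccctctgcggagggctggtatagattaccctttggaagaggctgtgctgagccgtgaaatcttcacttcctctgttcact
Cxcr6: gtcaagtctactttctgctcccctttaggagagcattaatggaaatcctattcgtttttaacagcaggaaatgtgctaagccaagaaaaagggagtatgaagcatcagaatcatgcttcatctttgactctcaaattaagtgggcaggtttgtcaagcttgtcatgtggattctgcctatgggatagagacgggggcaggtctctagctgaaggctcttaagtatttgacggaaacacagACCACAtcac
Ccr2: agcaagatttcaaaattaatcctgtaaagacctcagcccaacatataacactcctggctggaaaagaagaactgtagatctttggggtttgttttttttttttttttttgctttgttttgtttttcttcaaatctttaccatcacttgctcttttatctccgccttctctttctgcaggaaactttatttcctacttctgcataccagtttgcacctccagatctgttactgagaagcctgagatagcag
The Cxcr3 window held the T-box letters, which begin 234 bases upstream of the start. They were found in 1 of the 9 receptor windows and in 12.3% of 32851 windows of the same length. The RUNX motif, read on the opposite strand, began 110 bases upstream of Cxcr3 and 10 bases upstream of Cxcr6. It was present in 4 of the 9 windows and in 14% of all windows. The Ccr2 window held neither. The GATA letters GATAA were in 3 of the 9 windows and in 22.6% of all, and the ETS letters AGGAAG in 4 of 9 and in 29.5% of all. These motifs were picked after the expression values were known, and a match describes the letters only.

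Cxcr3, the receptor for the interferon-induced chemokines Cxcl9, Cxcl10 and Cxcl11, was far lower in naive cells than in every CD44+ population. Its ratios were 0.0364, 0.0427 and 0.0369 in naive cells. They were 1.361, 1.432 and 1.339 in CD62Lhi PSGL1hi cells, 1.808, 1.664 and 1.831 in CD62Llo PSGL1hi cells and 0.508, 0.482 and 0.661 in CD62Llo PSGL1lo cells. No population overlapped with another. Against naive cells Cxcr3 was higher by 5.52 ± 0.12 in CD62Llo PSGL1hi cells, 45.8-fold (adjusted p = 3.87e-14). It was higher by 5.16 ± 0.12 in CD62Lhi PSGL1hi cells (adjusted p = 1.08e-13) and by 3.82 ± 0.12 in CD62Llo PSGL1lo cells (adjusted p = 2.76e-12). With quantile normalization of the arrays, these 3 differences shrank to 3.64, 3.03 and 1.64 and stayed called. Among CD44+ cells Cxcr3 was lower in CD62Llo PSGL1lo cells than in CD62Llo PSGL1hi cells, with a log2 difference of -1.70 ± 0.12 (adjusted p = 5.62e-08), and than in CD62Lhi PSGL1hi cells, with -1.34 ± 0.12 (adjusted p = 5.65e-07). The difference of 0.36 ± 0.12 between CD62Llo PSGL1hi and CD62Lhi PSGL1hi cells did not pass (adjusted p = 0.19), although the arrays did not overlap. It was 0.61 with an adjusted p of 0.0161 after quantile normalization. The order was thus CD62Llo PSGL1hi, CD62Lhi PSGL1hi, CD62Llo PSGL1lo and naive, of which only the first pair did not differ by the test.

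Cxcr6, the receptor for the membrane-bound chemokine Cxcl16, set CD62Llo PSGL1hi cells apart from all others. Its main probe set had ratios of 5.941, 3.602 and 5.639 there, against 1.116, 0.695 and 0.904 in CD62Lhi PSGL1hi cells, 1.096, 0.629 and 1.249 in CD62Llo PSGL1lo cells and 0.102, 0.157 and 0.135 in naive cells. The CD62Llo PSGL1hi arrays overlapped with no other array, and the other CD44+ populations overlapped with each other. Cxcr6 was higher in CD62Llo PSGL1hi cells than in CD62Lhi PSGL1hi cells by 2.48 ± 0.25, 5.56-fold (adjusted p = 5.22e-05), and was number 2 of all 18193 genes by the size of this difference. It was lower in CD62Llo PSGL1lo cells than in CD62Llo PSGL1hi cells, with a log2 difference of -2.38 ± 0.25 (adjusted p = 6.12e-06). Between CD62Llo PSGL1lo and CD62Lhi PSGL1hi cells it differed by 0.10 ± 0.25 (adjusted p = 0.889), with a 95% interval from -0.44 to 0.63. Both were above naive cells, by 2.88 ± 0.25 (adjusted p = 2.24e-07) and 2.78 ± 0.25 (adjusted p = 4.92e-07), and quantile normalization left 1.42 and 1.15 of this, still called. CD62Llo PSGL1hi cells were above naive cells by 5.26 ± 0.25, 38.2-fold (adjusted p = 2.36e-10).

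The 2 probe sets of Cxcr6 gave the same picture. The other one had ratios of 5.649, 3.8 and 6.085 in CD62Llo PSGL1hi cells, 1.043, 0.922 and 0.957 in CD62Lhi PSGL1hi cells, 1.271, 0.824 and 1.096 in CD62Llo PSGL1lo cells and 0.0693, 0.087 and 0.0924 in naive cells. In the fit over all 45037 probe sets it was higher in CD62Llo PSGL1hi cells than in CD62Lhi PSGL1hi cells by 2.38 ± 0.19 (adjusted p = 1.87e-05). At both probe sets, replicate 2 was the lowest array of each CD44+ population. Over all genes, arrays with the same replicate number also deviated together among the CD44+ populations.

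Ccr2, the receptor for Ccl2, Ccl7 and Ccl12, was high in both PSGL1hi populations and low in both CD62Llo PSGL1lo and naive cells. Its main probe set had ratios of 4.074, 4.797 and 5.219 in CD62Llo PSGL1hi cells and 1.712, 2.608 and 1.707 in CD62Lhi PSGL1hi cells. It had 0.293, 0.256 and 0.135 in CD62Llo PSGL1lo cells and 0.191, 0.197 and 0.243 in naive cells. CD62Llo PSGL1hi arrays lay above all CD62Lhi PSGL1hi arrays, and the arrays of CD62Llo PSGL1lo and naive cells overlapped. Ccr2 was lower in CD62Llo PSGL1lo cells than in CD62Llo PSGL1hi cells, with a log2 difference of -4.43 ± 0.23, 21.6-fold (adjusted p = 2.21e-09), the 11th largest of all genes. It was also lower than in CD62Lhi PSGL1hi cells, by -3.19 ± 0.23 (adjusted p = 7.38e-08). Among PSGL1hi cells it was higher at low CD62L by 1.25 ± 0.23 (adjusted p = 0.00746), and by 1.90 (adjusted p = 0.000937) after quantile normalization. Against naive cells, CD62Llo PSGL1lo cells differed by 0.05 ± 0.23 (adjusted p = 0.92), with a 95% interval from -0.45 to 0.55. This small difference had no stable sign, and was -0.75 (adjusted p = 0.0604) after quantile normalization. CD62Llo PSGL1hi cells exceeded naive cells by 4.48 ± 0.23 (adjusted p = 6.44e-10) and CD62Lhi PSGL1hi cells by 3.23 ± 0.23 (adjusted p = 3.69e-08).

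The 4 probe sets of Ccr2 ranked the PSGL1hi populations alike, and differed in how far they spread. In the fit over all probe sets, CD62Llo PSGL1lo minus CD62Llo PSGL1hi was -4.43, -3.67, -3.18 and -1.46, each called. CD62Llo PSGL1hi minus CD62Lhi PSGL1hi was 1.25, 1.49, 1.21 and 0.59, of which the last did not pass (adjusted p = 0.0942). The last value of each series is from the probe set 1460067_at, with ratios of 1.421 to 1.807 in CD62Llo PSGL1hi cells and 0.551 to 0.623 in CD62Llo PSGL1lo cells. Between CD62Llo PSGL1lo and naive cells the probe sets gave 0.05, 0.01, 0.06 and -0.35, none of them called.

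**Figure D2:**
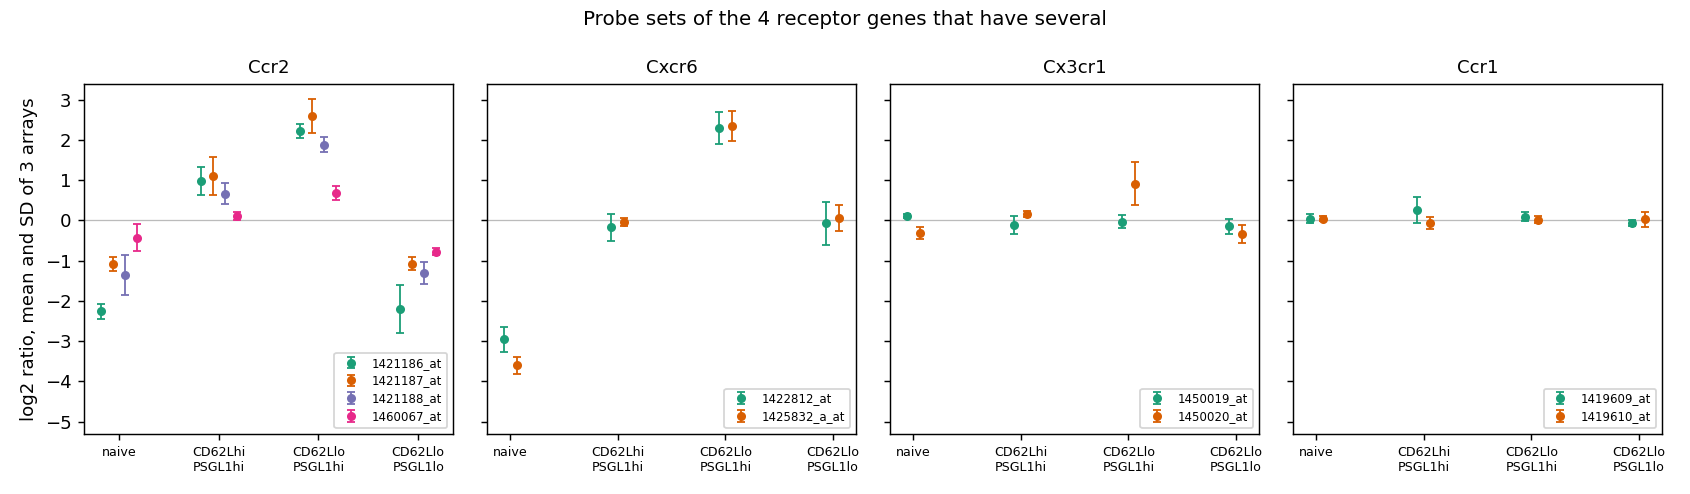
Mean log2 ratio and SD of 3 arrays for every probe set of the 4 receptors with more than 1 probe set (Ccr1, Ccr2, Cxcr6 and Cx3cr1), by population. The probe sets of Ccr2 and of Cxcr6 ranked the means of the CD44+ populations alike, whereas 1 of the 2 probe sets of Cx3cr1 rose in CD62Llo PSGL1hi cells and the other did not.

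Ccr6, the receptor for Ccl20, did not distinguish the PSGL1hi populations from each other. It had ratios of 1.99, 1.477 and 2.445 in CD62Lhi PSGL1hi cells, 2.424, 1.864 and 1.826 in CD62Llo PSGL1hi cells, 0.523, 0.391 and 0.511 in CD62Llo PSGL1lo cells and 0.208, 0.197 and 0.253 in naive cells. The PSGL1hi populations overlapped, and the other populations overlapped with none. CD62Llo PSGL1hi minus CD62Lhi PSGL1hi was 0.07 ± 0.18 (adjusted p = 0.953). CD62Llo PSGL1lo cells were lower than CD62Llo PSGL1hi cells, with a log2 difference of -2.10 ± 0.18, 4.29-fold (adjusted p = 4.34e-07), and lower than CD62Lhi PSGL1hi cells, with -2.03 ± 0.18 (adjusted p = 4.26e-07). Both PSGL1hi populations exceeded naive cells, by 3.21 ± 0.18 (adjusted p = 1.09e-09) at low and 3.15 ± 0.18 (adjusted p = 1.73e-09) at high CD62L. The rise of CD62Llo PSGL1lo over naive cells was 1.11 ± 0.18 (adjusted p = 0.000143), but fell to 0.07 (adjusted p = 0.89) after quantile normalization.

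Ccr4, the receptor for Ccl17 and Ccl22, had its highest values in CD62Lhi PSGL1hi cells, at 1.78, 1.823 and 1.99. CD62Llo PSGL1hi cells had 1.379, 1.013 and 1.25, CD62Llo PSGL1lo cells 0.987, 0.864 and 0.858, and naive cells 0.625, 0.841 and 0.922. The CD62Lhi PSGL1hi arrays lay above all others, and CD62Llo PSGL1lo and naive cells overlapped. CD62Lhi PSGL1hi cells exceeded naive cells by 1.25 ± 0.14 (adjusted p = 6.71e-06), and CD62Llo PSGL1lo minus CD62Lhi PSGL1hi was -1.05 ± 0.14 (adjusted p = 6.05e-05). CD62Llo PSGL1hi cells exceeded naive cells by 0.62 ± 0.14 (adjusted p = 0.00487). The difference CD62Llo PSGL1hi minus CD62Lhi PSGL1hi was -0.63 ± 0.14 (adjusted p = 0.029). That call was lost in the fit over all probe sets (adjusted p = 0.0592) and without any of 5 arrays, with adjusted p from 0.0549 to 0.178: replicates 1, 2 and 3 of CD62Lhi PSGL1hi and replicates 2 and 3 of CD62Llo PSGL1hi. CD62Llo PSGL1lo minus CD62Llo PSGL1hi was -0.42 ± 0.14 and did not pass (adjusted p = 0.0812). It passed with the replicate number as a block within the CD44+ arrays (adjusted p = 0.0237), after quantile normalization (adjusted p = 0.0416), without replicate 2 of CD62Llo PSGL1hi (adjusted p = 0.0329) and without replicate 1 of naive cells (adjusted p = 0.0385).

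Ccr8, the receptor for Ccl1, was likewise highest on average in CD62Lhi PSGL1hi cells, at 1.249, 1.554 and 1.936. CD62Llo PSGL1hi cells had 1.124, 1.183 and 1.299, CD62Llo PSGL1lo cells 0.757, 0.876 and 0.784, and naive cells 0.671, 0.734 and 0.728. The PSGL1hi populations overlapped and differed by -0.37 ± 0.13, low minus high CD62L, which did not pass (adjusted p = 0.251). Without replicate 1 of CD62Lhi PSGL1hi this was -0.53 (adjusted p = 0.0368). CD62Llo PSGL1lo cells were lower than CD62Llo PSGL1hi cells by -0.58 ± 0.13 (adjusted p = 0.00854) and than CD62Lhi PSGL1hi cells by -0.95 ± 0.13 (adjusted p = 8.22e-05). Against naive cells, CD62Lhi PSGL1hi cells were higher by 1.13 ± 0.13 (adjusted p = 9.32e-06) and CD62Llo PSGL1hi cells by 0.76 ± 0.13 (adjusted p = 0.000513). CD62Llo PSGL1lo minus naive was 0.18 ± 0.13 (adjusted p = 0.402).

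Ccr1, a receptor for Ccl3, Ccl5 and other chemokines of myeloid recruitment, gave no call in any comparison at either probe set. The ratios ranged from 0.924 to 1.381 at the main and from 0.859 to 1.184 at the other probe set. The largest difference was CD62Llo PSGL1lo minus CD62Lhi PSGL1hi at the main probe set, -0.32 ± 0.13 (adjusted p = 0.157), with a 95% interval from -0.60 to -0.03. Without replicate 2 of CD62Lhi PSGL1hi, which had a ratio of 0.924 against 1.381 and 1.326 of the same population, it was -0.50 (adjusted p = 0.00642), and CD62Lhi PSGL1hi minus naive was 0.39 (adjusted p = 0.0211).

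Cx3cr1, the receptor for the membrane-bound chemokine Cx3cl1 and a marker of patrolling monocytes and cytotoxic effector cells, gave different answers at its 2 probe sets. The main one ranged from 0.78 to 1.125 over the 12 arrays, and none of its differences passed. At the other, 1450020_at, the ratios were 2.144, 1.242 and 2.523 in CD62Llo PSGL1hi cells, 1.066, 1.121 and 1.166 in CD62Lhi PSGL1hi cells, 0.68, 0.784 and 0.934 in CD62Llo PSGL1lo cells and 0.872, 0.824 and 0.718 in naive cells. In the fit over all probe sets this one was higher in CD62Llo PSGL1hi cells than in naive cells by 1.23 ± 0.20 (adjusted p = 0.000582). CD62Llo PSGL1lo minus CD62Llo PSGL1hi was -1.25 ± 0.20 (adjusted p = 0.00108). CD62Llo PSGL1hi minus CD62Lhi PSGL1hi was 0.76 ± 0.20 and did not pass (adjusted p = 0.124). Which probe set reports the Cx3cr1 transcript was not tested. Replicate 2 was the lowest CD62Llo PSGL1hi array here too.

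Counted over the 8 receptors, CD62Llo PSGL1lo cells had 5 lower and 0 higher than CD62Llo PSGL1hi cells, namely Ccr2, Cxcr6, Ccr6, Cxcr3 and Ccr8. Among all genes 6.17% were lower and 4.55% higher in this comparison. At an unadjusted p under 0.05 the limma counts were 6 lower and 0 higher in both comparisons of CD62Llo PSGL1lo with PSGL1hi cells. The shares of all genes, here and below, are at the adjusted p. They were not counted at the unadjusted p, so counts at that threshold have no share beside them. The median difference was -1.14 over the receptors and 0.0075 over all genes. Over probe sets, 10 of 14 were lower, against 4.97% of all probe sets, and the F test called all but both of Ccr1 and 1 of Cx3cr1, against 23.7% of all probe sets. CD62Llo PSGL1lo cells also had 5 lower and 0 higher than CD62Lhi PSGL1hi cells, against 8.1% and 6.7% of all genes, here with Ccr4 and without Cxcr6. The median difference was -0.999 over the receptors. These comparisons share the CD62Llo PSGL1lo arrays.

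Between the PSGL1hi populations the receptors called in the fit over genes moved both ways, with Ccr4 alone lower. Cxcr6 and Ccr2 were higher and Ccr4 was lower at low CD62L, against 0.704% of all genes higher and 1.4% lower. The median over the receptors was 0.07. Over probe sets, 5 of 14 were higher, against 0.395% of all probe sets, 3 of them of Ccr2 and 2 of Cxcr6. In that fit 0 of 14 were called lower, beside 378 of all 45037 probe sets, and Ccr4 did not pass (adjusted p = 0.0592). The lower call of Ccr4 was also lost on leaving out single arrays, as given above.

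Against naive cells 0 receptors were lower in any CD44+ population by limma at their main probe sets, at the adjusted or at an unadjusted p under 0.05. In the fit over all probe sets, 1460067_at of Ccr2 was lower in CD62Llo PSGL1lo than in naive cells at the unadjusted limma p only. The difference was -0.35 ± 0.15 (unadjusted p = 0.036, adjusted p = 0.132). Both PSGL1hi populations had 6 of 8 called higher, all but Ccr1 and Cx3cr1, against 10.4% of all genes for CD62Lhi PSGL1hi and 10.7% for CD62Llo PSGL1hi cells. The shares of genes called lower were 10.3% and 10.1%. The median difference of the receptors from naive was 2.01 at high and 1.98 at low CD62L. Over probe sets, CD62Llo PSGL1hi cells had 11 of 14 higher than naive, against 9.1%. In CD62Llo PSGL1lo cells 3 of 8 were higher than naive, against 10.9% of genes higher and 12.3% lower, and the median was 0.19. These were Cxcr3, Cxcr6 and Ccr6, the last of which was lost with quantile normalization. The 3 comparisons share the naive arrays.

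**Figure D3:**
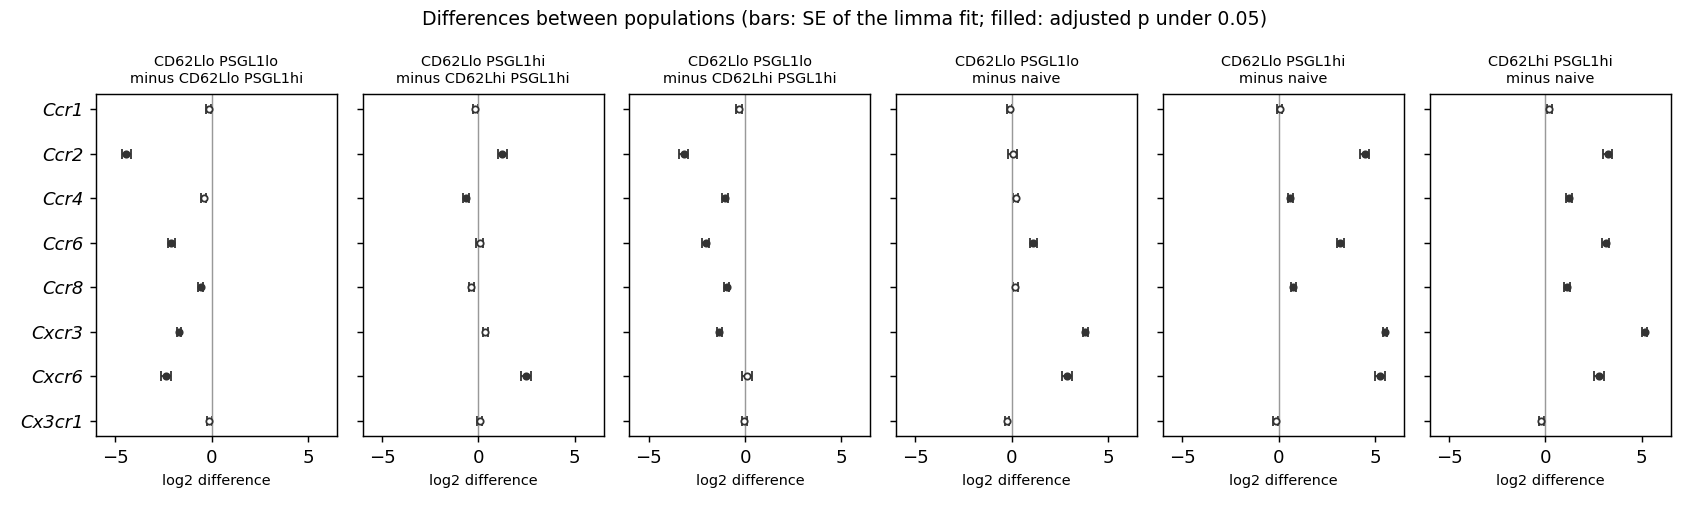
Log2 difference and SE of each receptor's main probe set in the 6 pairwise comparisons; filled points are called at an adjusted p under 0.05 and open points are not. Most filled points lie left of 0 where CD62Llo PSGL1lo cells are compared with PSGL1hi cells, and right of 0 in the comparisons with naive cells.

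Each receptor was set beside the 3 genes whose log2 ratios followed it most closely over the 12 arrays. These correlations describe likeness of pattern, and the arrays share their populations. Cxcr3 was most like Cst7 (r = 0.996), which encodes the cystatin of cytotoxic cells, Rnf43 (r = 0.996) and Ifng (r = 0.995), which encodes interferon gamma. The mean ratio of Ifng was 0.0132 in naive, 1.79 in CD62Lhi PSGL1hi, 2.47 in CD62Llo PSGL1hi and 0.663 in CD62Llo PSGL1lo cells. Ccr2 was most like Esm1 (r = 0.983), Il18rap (r = 0.98), a subunit of the interleukin-18 receptor, and Trpc1 (r = 0.978). The mean ratio of Il18rap was 0.447, 1.51, 3.04 and 0.369 in the same order of populations.

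Cxcr6 was most like Cep170b (r = 0.969), Il15ra (r = 0.968), which encodes the high-affinity chain of the interleukin-15 receptor, and Crim1 (r = 0.965). The mean ratio of Il15ra was 0.501 in naive, 1.03 in CD62Lhi PSGL1hi, 1.54 in CD62Llo PSGL1hi and 0.934 in CD62Llo PSGL1lo cells, a much narrower range than that of Cxcr6. Ccr6 was most like Wee1 and Lrrn4 (r = 0.988 for both) and Tnfrsf1b (r = 0.986), a receptor for tumour necrosis factor. Ccr8 was most like Slamf7 (r = 0.945), Txndc5 (r = 0.945) and Car5b (r = 0.942), and Ccr4 like Slc27a4 (r = 0.973), Renbp (r = 0.961) and Ptprk (r = 0.946). The genes closest to Ccr8 and Ccr4, chosen for this likeness, had their highest mean in CD62Lhi PSGL1hi cells. Examples are Slamf7 at 5.43 and Ptprk at 3.9, against 2.13 and 1.75 in CD62Llo PSGL1hi cells. Ccr1 and Cx3cr1, which did not differ by the F test, were closest to Ccr3 (r = 0.911) and Dhx15 (r = 0.947).

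Cxcr6 and Ccr2 lie on chromosome 9 in a stretch of chemokine receptor genes, which in RefSeq order on GRCm38.p6 runs Cxcr6, Xcr1, Ccr1, Ccr1l1, Ccr3 and Ccr2. Only Cxcr6 and Ccr2 passed the F test over the populations. The adjusted p was 0.847 for Xcr1, 0.335 for Ccr1, 0.0573 for Ccr1l1 and 0.254 for Ccr3. This stretch was looked at after the values were known.

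Of the 18 ligands of the receptors, all of which were measured, the cells' own chemokine genes Ccl3, Ccl4 and Ccl5 were lower in CD62Llo PSGL1lo cells than in CD62Llo PSGL1hi cells, as Cxcr3 and Ccr2 were. In all, 5 of the 18 ligands were lower, also Ccl1 and Ccl9, and 1 was higher, where 6.17% of all genes were lower and 4.55% higher. The 1 of 18 higher is near the share of all genes. The median of the list was -0.16. Ccl5, a ligand of Ccr1, had ratios of 2.69, 2.879 and 2.818 in CD62Llo PSGL1hi cells and 0.13, 0.21 and 0.174 in CD62Llo PSGL1lo cells, with a difference of -4.06 ± 0.15 (adjusted p = 3.39e-11). Ccl1, the ligand of Ccr8, was lower by -0.90 ± 0.23 (adjusted p = 0.0159). Cxcl10, a ligand of Cxcr3, went the other way. It had 3.058, 1.772 and 2.719 in CD62Llo PSGL1lo cells, above 1.278, 1.037 and 1.824 in CD62Llo PSGL1hi cells except for 1 overlapping array, and was higher by 0.87 ± 0.20 (adjusted p = 0.00716). Thus the RNA of Cxcr3 was lower and that of Cxcl10 higher in the same CD62Llo PSGL1lo cells. The other Cxcr3 ligands were not called there, Cxcl9 at -0.21 ± 0.17 (adjusted p = 0.593) and Cxcl11 at 0.61 ± 0.23 (adjusted p = 0.134).

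In the other comparisons, 2 ligands were higher and 0 lower in CD62Llo PSGL1hi cells than in CD62Lhi PSGL1hi cells, Ccl3 by 0.74 ± 0.14 (adjusted p = 0.00983) and Ccl4 by 0.75 ± 0.15 (adjusted p = 0.0151). Of all genes 0.704% were higher and 1.4% lower there. CD62Llo PSGL1lo cells had 2 higher (Cxcl10 and Cxcl11) and 3 lower (Ccl3, Ccl4 and Ccl5) than CD62Lhi PSGL1hi cells, beside 6.7% and 8.1% of all genes. Against naive cells 5 were higher and 1, Ccl6, lower in CD62Llo PSGL1lo cells, beside 10.9% and 12.3% of all genes. In CD62Llo PSGL1hi cells 6 were higher than in naive cells and in CD62Lhi PSGL1hi cells 5, with 0 lower in both by limma (0 and 1 at an unadjusted p under 0.05). Of all genes, 10.7% were higher and 10.1% lower in the former and 10.4% and 10.3% in the latter. Cxcl16, the ligand of Cxcr6, gave no call, with -0.07 ± 0.11 between the PSGL1hi populations (adjusted p = 0.918). Ccl20, the ligand of Ccr6, and Ccl22, a ligand of Ccr4, likewise gave none.

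Among 15 other chemotactic receptors, the follicular receptor Cxcr5 and the retention receptor Cxcr4 were higher in CD62Llo PSGL1lo cells, opposite to Ccr2, Cxcr6, Ccr6, Cxcr3 and Ccr8. Cxcr5 had ratios of 1.866, 1.4 and 2.137 in CD62Llo PSGL1lo and 0.954, 0.819 and 0.916 in CD62Llo PSGL1hi cells, with a difference of 0.99 ± 0.14 (adjusted p = 9.57e-05). Cxcr4 was higher by 1.20 ± 0.15 (adjusted p = 3.07e-05). The other calls in this comparison were lower, Ccrl2, a chemerin-binding receptor, by -1.05 ± 0.16 (adjusted p = 0.000217) and S1pr1, which lets lymphocytes leave lymphoid organs, by -0.79 ± 0.22 (adjusted p = 0.0296). These were 2 of the 15 in each direction, where 4.55% of all genes were higher and 6.17% lower. Ccr7, which guides cells to the T cell zone, did not separate CD62Llo PSGL1lo from CD62Llo PSGL1hi cells (0.12 ± 0.19, adjusted p = 0.82). Its ratios were 7.164, 6.803 and 6.353 in naive cells and 0.712 to 1.447 in the CD44+ arrays, the reverse of Cxcr3.

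Against CD62Lhi PSGL1hi cells, 2 of the 15 were higher and 3 lower in CD62Llo PSGL1lo cells, and 0 were called between the PSGL1hi populations by limma, where 1 was lower at an unadjusted p under 0.05. Of all genes 6.7% were higher and 8.1% lower in the first comparison, and 0.704% and 1.4% in the second. Against naive cells 4 of the 15 were higher in every CD44+ population, namely Cxcr4, Cxcr5, Ccrl2 and Gpr183. Lower than in naive cells were Ccr7 and S1pr1 in every CD44+ population, and Cxcr2 in the CD62Llo populations. Between 10.4% and 10.9% of all genes were higher, and between 10.1% and 12.3% lower, in the CD44+ populations than in naive cells. Cxcr5 rose from ratios of 0.0556 to 0.0676 in naive cells, by 4.81 ± 0.14 in CD62Llo PSGL1lo cells (adjusted p = 1.63e-12).

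Of 40 measured genes of chemokine receptor signalling and desensitisation, 7 were lower and 2 higher in CD62Llo PSGL1lo cells than in CD62Llo PSGL1hi cells, with a median of -0.12. Of all genes 6.17% were lower and 4.55% higher, so that the 2 of 40 higher are near the share of all genes. Rgs1, which shuts off Gi signals below chemokine receptors, had ratios of 2.221, 2.002 and 2.348 in CD62Llo PSGL1hi and 0.54, 0.326 and 0.437 in CD62Llo PSGL1lo cells and was lower by -2.36 ± 0.16 (adjusted p = 3.51e-08). Tpst2, which sulfates tyrosines of chemokine receptors and of PSGL1, was lower by -1.73 ± 0.12 (adjusted p = 5.24e-08). Grk5, a kinase that desensitises receptors, was lower by -0.69 ± 0.13 (adjusted p = 0.0021). Rgs10 was higher by 1.59 ± 0.16 (adjusted p = 4.62e-06), and Rgs16 was not called, at 0.55 ± 0.20 (adjusted p = 0.101). The remaining calls were Rgs3, Rap1b, Tln1 and Adam17, lower, and Cdc42, higher.

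Between the PSGL1hi populations 1 of the 40, Rgs3, was higher at low CD62L, beside 0.704% of all genes. CD62Llo PSGL1lo cells had 3 higher and 6 lower than CD62Lhi PSGL1hi cells, beside 6.7% and 8.1% of all genes. Against naive cells 11 were higher and 8 lower in CD62Llo PSGL1lo, 15 and 8 in CD62Llo PSGL1hi and 14 and 8 in CD62Lhi PSGL1hi cells. The shares of all genes in the same order were 10.9% and 12.3%, 10.7% and 10.1%, and 10.4% and 10.3%. Rgs16 was 1 of those higher in all of these, by 3.93 ± 0.20 in CD62Llo PSGL1lo cells (adjusted p = 3.36e-10).

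**Figure D4:**
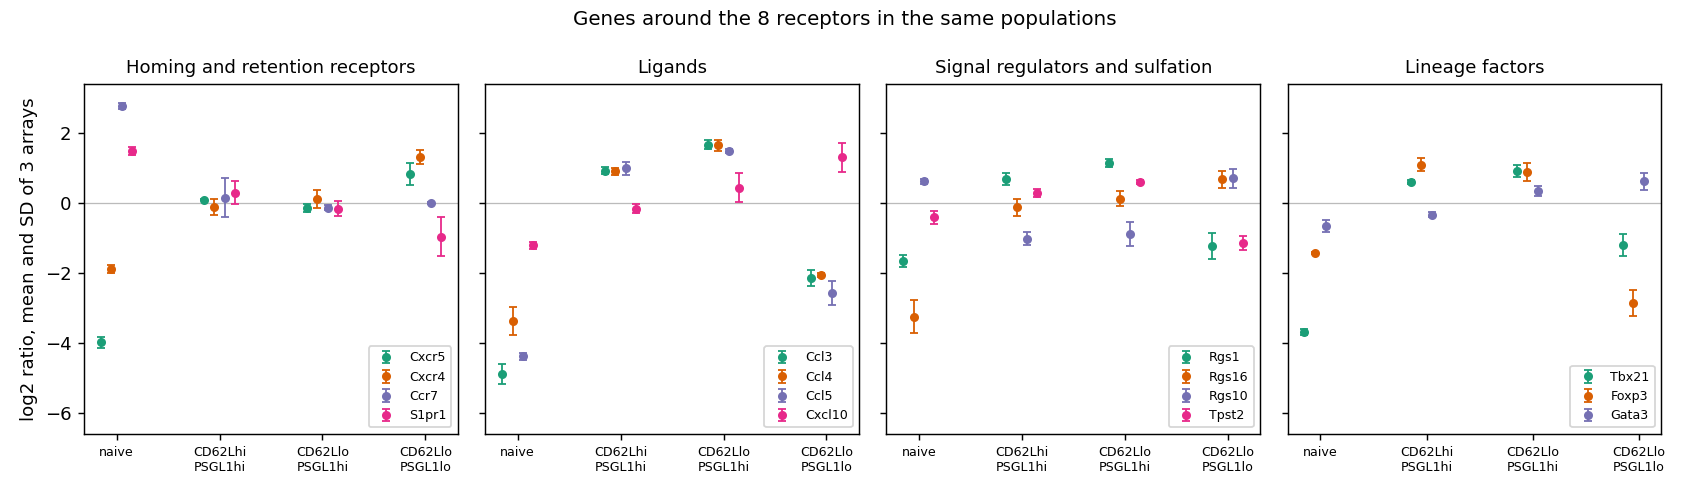
Mean log2 ratio and SD of 3 arrays by population for other receptors, ligands, signalling genes and lineage factors; each colour is 1 gene. Ccl3, Ccl4, Ccl5, Rgs1, Tpst2, Tbx21 and Foxp3 fell from CD62Llo PSGL1hi to CD62Llo PSGL1lo cells, and Cxcr5, Cxcr4, Cxcl10 and Rgs10 rose.

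The lineage factors tied to these receptors were measured in the same arrays. Tbx21, the Th1 factor T-bet, had ratios of 1.865, 1.66 and 2.101 in CD62Llo PSGL1hi, 1.534, 1.544 and 1.449 in CD62Lhi PSGL1hi, 0.417, 0.352 and 0.551 in CD62Llo PSGL1lo and 0.0728 to 0.0819 in naive cells, the order that Cxcr3 also had. Foxp3, the factor of regulatory T cells, was high in both PSGL1hi populations, at 1.625 to 2.372, and lower in CD62Llo PSGL1lo cells than in CD62Llo PSGL1hi cells by -3.74 ± 0.17 (adjusted p = 3.52e-10). Unlike Ccr4, it did not pass between the PSGL1hi populations (-0.21 ± 0.17, adjusted p = 0.773). Whether the difference of Ccr4 exceeds that of Foxp3 was not tested. Gata3, the Th2 factor, was higher in CD62Llo PSGL1hi cells than in CD62Lhi PSGL1hi cells by 0.68 ± 0.13 (adjusted p = 0.00827), whereas Ccr4 was lower there.

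Because Ccr2 and Cx3cr1 are monocyte genes and Cxcr6 is a gene of innate-like T cells, marker lists of other cells were read beside them. Of 13 monocyte, macrophage or neutrophil markers, 0 were higher and 1, Cd68, lower in CD62Llo PSGL1lo cells than in CD62Llo PSGL1hi cells. With 4.55% of all genes higher and 6.17% lower, 1 of 13 is near the share of all genes. Lyz2, S100a8 and Csf1r differed there by -0.05 ± 0.48 (adjusted p = 0.982), -0.23 ± 0.29 (adjusted p = 0.773) and -0.39 ± 0.24 (adjusted p = 0.441). In CD62Llo PSGL1hi cells against naive cells, 5 of the 13 markers were lower and 2 higher, beside 10.1% and 10.7% of all genes. Cd68 and Mpo were higher, as Ccr2 was. Lyz2, Itgam, Fcgr3, S100a8 and S100a9 were lower, opposite to Ccr2, S100a8 by -3.76 ± 0.29 (adjusted p = 7.28e-08). The mean log2 ratio of the list was 0.509 to 0.589 in the naive arrays and -0.108 to 0.247 in the CD62Llo PSGL1hi arrays. Cd68 was also the only marker called between the PSGL1hi populations, lower at low CD62L, where Ccr2 was higher, beside 1.4% of all genes. It was again the only call, lower as Ccr2 was, in CD62Llo PSGL1lo against CD62Lhi PSGL1hi cells, beside 8.1%. The part of monocytes, macrophages or neutrophils in the Ccr2 and Cx3cr1 differences was not tested.

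Of 7 NK or innate-like T cell markers, 2 were higher and 0 lower in CD62Llo PSGL1hi cells than in CD62Lhi PSGL1hi cells by limma (3 and 1 at an unadjusted p under 0.05), beside 0.704% and 1.4% of all genes. These were Klrd1, by 1.63 ± 0.29 (adjusted p = 0.00576), and Trgv1, by 2.31 ± 0.20 (adjusted p = 1.96e-05). In CD62Llo PSGL1lo against CD62Llo PSGL1hi cells 3 of the 7 were lower, Klrd1 by -4.59 ± 0.29 (adjusted p = 2.23e-08), Trgv1 by -3.47 ± 0.20 (adjusted p = 7.84e-09) and Klre1 by -0.63 ± 0.14 (adjusted p = 0.0078), beside 6.17% of all genes. In these 2 comparisons Klrd1 and Trgv1 had the direction of Cxcr6 and Ccr2. Both were also higher in CD62Llo PSGL1hi cells than in naive cells, as Cxcr6 and Ccr2 were. That is 2 of the 7 markers called higher there, beside 10.7% of all genes. The remaining comparisons matched only in part. CD62Llo PSGL1lo cells were lower than CD62Lhi PSGL1hi cells in Klrd1, by -2.95 ± 0.29 (adjusted p = 2.19e-06), and in Trgv1, by -1.16 ± 0.20 (adjusted p = 0.000665), as in Ccr2 but not in Cxcr6. Klrd1 was also lower in CD62Llo PSGL1lo than in naive cells, by -2.76 ± 0.29 (adjusted p = 2.28e-06), where Cxcr6 was higher. Between CD62Lhi PSGL1hi and naive cells Klrd1 was not called (0.20 ± 0.29, adjusted p = 0.723), whereas Cxcr6, Ccr2 and Trgv1 were higher in CD62Lhi PSGL1hi cells. Cd160, another marker of the list, was higher in CD62Llo PSGL1lo cells than in CD62Lhi PSGL1hi cells by 0.54 ± 0.14 (adjusted p = 0.0131) and than in naive cells by 0.50 ± 0.14 (adjusted p = 0.0151). The mean log2 ratio of the list was 0.435 to 0.877 in the CD62Llo PSGL1hi arrays, -0.0114 to 0.262 in the CD62Lhi PSGL1hi arrays, -0.519 to -0.351 in the CD62Llo PSGL1lo arrays and -0.0519 to -0.00878 in the naive arrays. The part of such cells in the Cxcr6 and Ccr2 differences was not tested, and ratios do not show whether any marker is near background.

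For Ccr6, which B cells also carry, 9 B cell markers were read. Cd79b and Ms4a1 were lower in CD62Llo PSGL1lo cells than in CD62Llo PSGL1hi cells, by -1.03 ± 0.11 (adjusted p = 4.12e-06) and -1.51 ± 0.26 (adjusted p = 0.000694), in the direction of Ccr6, and the other 7 were not called, where 6.17% of all genes were lower. Against naive cells Ms4a1 did not pass in CD62Llo PSGL1hi cells (-0.49 ± 0.26, adjusted p = 0.203), while Ccr6 was higher by 3.21. Cd79b and Cd22 were higher there, as Ccr6 was, and Cr2 and Blk lower, beside 10.7% and 10.1% of all genes. In CD62Lhi PSGL1hi cells Cd79b and Cd22 were higher and Cr2 lower than in naive cells, beside 10.4% and 10.3%. CD62Llo PSGL1lo cells had Cd79b and Ms4a1 lower and Cd22 higher than CD62Lhi PSGL1hi cells, beside 8.1% and 6.7%. The part of B cells in the Ccr6 difference was not tested. Both CD8 markers were lower in every CD44+ population than in naive cells, beside 10.1% to 12.3% of all genes, and neither was called among CD44+ populations. Of 7 dendritic cell markers none was called among the CD44+ populations. Of 5 CD4 T cell markers, Cd4 was higher in CD62Llo PSGL1hi and in CD62Llo PSGL1lo cells than in CD62Lhi PSGL1hi cells. Of all genes 0.704% and 6.7% were higher there. No CD4 T cell marker differed by the test between the CD62Llo populations. Among the CD44+ populations 0.704% to 8.1% of all genes were called in either direction. For lists this small, no call is near those shares.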

How the data were processed

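Expression was measured on 12 arrays, 3 for each of 4 sorted populations. The deposited values are linear ratios of a signal to its median over the 12 arrays. The signals came from MAS5 per the submitters' processing notes, with a version and scaling not given in the sources used here. That the values are such ratios was read from the deposited file itself. The median of a probe set was within 0.002 of 1 for 99.7% of 45101 probe sets. Dim probe sets could therefore not be filtered, and no pseudocount was needed because no value was 0 or below.

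The log2 ratios were fitted with limma 3.58.1 (lmFit and eBayes, in R 4.3.3) on all 12 arrays with 1 mean per population. Tests were two-sided with Benjamini-Hochberg adjustment over 18193 genes at 0.05: an F test over the populations and 6 pairwise comparisons. The platform annotation gave 34945 probe sets 1 gene symbol and 932 several; 9160 were unlisted and 64 were controls. Each gene was represented by 1 probe set, first one without the suffix _x_, _s_ or _a_, then one with a curated RefSeq target, then the lowest number. A second fit held all 45037 probe sets that are not controls. The residual degrees of freedom were 8, with a prior of 7.3. The number of arrays limits the precision, and the median SE of a difference was 0.118. The fit was tested on simulated data before use.

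Named genes were the receptors, the 3 genes most correlated with each over the arrays, up to 5 genes of each pathway list with the smallest F test p, sort markers and lineage factors. Single ligands and cell type markers were named besides, after their values were seen. The receptors and lists were chosen with earlier results of these data known. Upstream windows came from RefSeq.

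Pairing of arrays by replicate number was checked, since the titles number them 1 to 3. Deviations from the population means correlated at 0.128 to 0.448 between CD44+ populations, all above 0.1, and at -0.125 to 0.2 with naive arrays, so the numbers were taken to pair the CD44+ arrays only. Alternatives were quantile normalization, centring of arrays on their median, the probe set with the highest SD, all probe sets in a single fit, only the 2 groups compared, the replicate block, robust eBayes and leaving out each array.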

Additional observations from a re-analysis of the deposited data

How the results depend on the processing

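Over 20 settings, the 28 called receptor differences were recomputed 545 times: 538 kept their direction and call, 7 kept the direction and lost the call, and 0 reversed. Those lost are Ccr4 between the PSGL1hi populations and Ccr6 between CD62Llo PSGL1lo and naive cells, given beside those receptors. Of 391 recomputed values of the 20 differences not called, 10 gained a call and 17 changed sign. When the most variable probe set stood for the gene, Cx3cr1 turned to 0.48 (CD62Lhi PSGL1hi minus naive) and 1.23 (CD62Llo PSGL1hi minus naive). With quantile normalization Ccr2 in CD62Llo PSGL1lo minus naive was -0.75. This setting gives every array 1 distribution, while the SD of log2 ratios over genes ran from 0.198 to 0.492 between arrays. Leaving out 1 array gave, as lowest and highest, -0.0026 and 0.12 for Ccr1 in CD62Llo PSGL1hi minus naive, -0.17 and 0.39 for Ccr2 in CD62Llo PSGL1lo minus naive, -0.13 and 0.24 for Ccr6 and -0.043 and 0.17 for Cx3cr1 in CD62Llo PSGL1hi minus CD62Lhi PSGL1hi, and -0.16 and 0.058 for Cx3cr1 and -0.10 and 0.40 for Cxcr6 in CD62Llo PSGL1lo minus CD62Lhi PSGL1hi. The cause of these sign changes was not tested.

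All probe sets in a single fit, which tests more features, called 10696 by the F test, and 3775 (CD62Llo PSGL1lo minus CD62Llo PSGL1hi), 5242 (CD62Llo PSGL1lo minus CD62Lhi PSGL1hi), 9044, 7772 and 7770 (CD62Llo PSGL1lo, CD62Llo PSGL1hi and CD62Lhi PSGL1hi minus naive). With the replicate block, genes called between the PSGL1hi populations rose from 383 to 590 within the CD44+ arrays and 581 over all arrays. The block within the CD44+ arrays added Ccr4 in CD62Llo PSGL1lo minus CD62Llo PSGL1hi, for 6 receptors called, and changed no other receptor call.

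Leaving out 1 array left 4185 to 5558 genes by the F test, 1463 to 2050 for CD62Llo PSGL1lo minus CD62Llo PSGL1hi, 249 to 463 between the PSGL1hi populations, the lowest without CD62Llo PSGL1hi replicate 2, 2243 to 2806 for CD62Llo PSGL1lo minus CD62Lhi PSGL1hi, and 3459 to 4374, 2860 to 4242 and 2938 to 4175 for CD62Llo PSGL1lo, CD62Llo PSGL1hi and CD62Lhi PSGL1hi minus naive. Without CD62Llo PSGL1lo replicate 2 the calls were 1142 higher and 908 lower in CD62Llo PSGL1lo minus CD62Llo PSGL1hi (828 and 1123 with all arrays), 1589 and 1217 in CD62Llo PSGL1lo minus CD62Lhi PSGL1hi (1219 and 1474), and 2427 and 1840 in CD62Llo PSGL1lo minus naive (1976 and 2245). Signal over background is not known here and limits dim probe sets.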
